A study of Curcuma longa with 2 samples.

Results

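Among the small RNAs listed for nanoparticles from turmeric (Curcuma longa) root, the entries considered here carry the names of 15 registered plant miRNA families that have been proposed to be pieces of ribosomal RNA (rRNA) or transfer RNA (tRNA). The families were taken by the number in the name (miR2910, miR2911, miR2914, miR2915, miR2916, miR6300, miR5368, miR6173, miR6478, miR8155, miR8175, miR894, miR5139, miR5072 and miR5077), under any species prefix. The rule uses names and no measured value, but the families were chosen with earlier results of these data known. They comprised 30 of the 186 distinct sequences of the deposited table, on 44 of its 266 lines, and 28 of the 30 had reads. The 2 samples, called library 1 and library 2, are labelled as turmeric nanoparticle RNA from turmeric root and form 1 group without a control, a treatment or a second genotype. RNA inside the particles and RNA that was merely isolated along with them cannot be told apart. The labels do not say whether the samples were prepared separately, so their spread may be technical. The entries were taken by name and were not searched against turmeric rRNA or tRNA, whose sequences were not used here.

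A plant miRNA is cut as a duplex from the stem of a folded precursor by a Dicer enzyme, usually as a 20 to 22 nt strand with a first U, and guides an Argonaute protein to a complementary transcript. rRNA and tRNA are far more abundant than miRNA precursors in a plant cell, and their breakdown pieces enter small RNA libraries of the same length range. A tRNA folds so that its first and last bases pair with each other as the acceptor stem. One of its loops, the T loop, usually holds the letters GTTCGA or a close form, and the letters CCA are added to its 3′ end after transcription in plants. miR2916 was registered in poplar (Populus euphratica) and matches small-subunit rRNA, while the other names come from soybean (prefix gma), poplar (Populus trichocarpa, ptc), rice (osa) and Arabidopsis (ath).

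The sequences that carry most of the reads, and those that define the ends of the tRNA-like entries, are shown here as the table writes them, with T for U and with the seed, bases 2 to 8, in capitals. Numbers rank the sequences of a family by their reads. All 5 sequences of miR2916 are given because they lie next to or across one another:
miR2916 no. 1: gCCGACCAgggatcggtggatgtt
miR2916 no. 2: aTACCGTCctagtctcaaccata
miR2916 no. 3: tGGGGGCTcgaagacgatca
miR2916 no. 4: gGCTCGAAgacgatcagat
miR2916 no. 5: aAGACGATcagataccgtcctagtc
Of miR5368, the leading 2 are given. Of miR6300, the shortest and a longer form with the same start are shown with a form that reads taa where the longer ones read tga. Of miR6478, a pair that differs at base 6 is shown:
miR5368 no. 1: tCTAACCTtgtgtcaggacct
miR5368 no. 2: gAGATACCactctggaagagct
miR6300 no. 1: aGTATAGTggtaagtattccc
miR6300 no. 2: gTCGTTGTagtatagtggt
miR6300 no. 3: gTCGTTGTagtatagtggtgagt
miR6478 no. 1: cCGACCTTagctcagttggta
miR6478 no. 4: cCGACTTTagctcagttggta
The sequences of miR5077, miR5072 and miR8175 with reads are given for their common 3′ end:
miR5077 no. 1: tTCACGTCgggttcacca
miR5072 no. 1: tCCCCAGCggagtcgcca
miR5072 no. 2: tCCCCAGTggagtcgcca
miR8175 no. 1: tCCCCGGCaacggcgcca

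All entries of the table summed to 96386 reads for library 1 and 72196 for library 2. The sums describe the list and not the sequencing depth, and shares below are percent of these totals as mean ± SD over the 2 libraries. Intervals for a single library are exact Clopper-Pearson 95% intervals and leave out every error but that of counting, because PCR reads carrying no molecular identifier are not independent molecules. A sequence's reads were summed over its lines. No line held a value between 0 and 2.5 reads, so the list may have a minimum and a 0 need not mean absence. Over the 153 sequences with at least 10 reads, the libraries differed by more than counting noise (chi-square 7.66 per degree of freedom) and were counted as 2 samples.

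The rRNA- or tRNA-like entries held 17837 reads in library 1 and 13481.5 in library 2, or 18.5% (18.3% to 18.8%) and 18.7% (18.4% to 19.0%). Of the 15 families, 7 had reads and 8 had none in the entries used here (miR2910, miR2911, miR2914, miR2915, miR6173, miR8155, miR894 and miR5139). miR2916 made up nearly all of it, at 17.8% ± 0.14 (SD, n = 2), and the other 6 families together reached 0.81% ± 0.022 (SD, n = 2). Among those, miR5368 stood highest at 0.41% ± 0.038, then miR6478 at 0.16% ± 0.0099 and miR6300 at 0.13% ± 0.0054 (SD, n = 2 each). miR5077 held 0.081% ± 0.0030, miR5072 0.029% ± 0.00076 and miR8175 0.0087% ± 0.0024 (SD, n = 2 each). Without loosely matched entries, whose names each denote an arm with no registered form or carry 2 substitutions, miR2916 held 7.53%, and without its leading sequence 11.5%. Both libraries ranked the 7 families in this order. The single-library intervals of miR6478 and miR6300 overlapped, at 0.126% to 0.176% and 0.101% to 0.147% in library 1 and at 0.135% to 0.196% and 0.105% to 0.159% in library 2, so this pair was not separated at this depth. The intervals of miR6300 and miR5077 overlapped in library 2, and those of miR5072 and miR8175 in library 1, while the remaining neighbours did not overlap in either library.

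**Figure D1:**
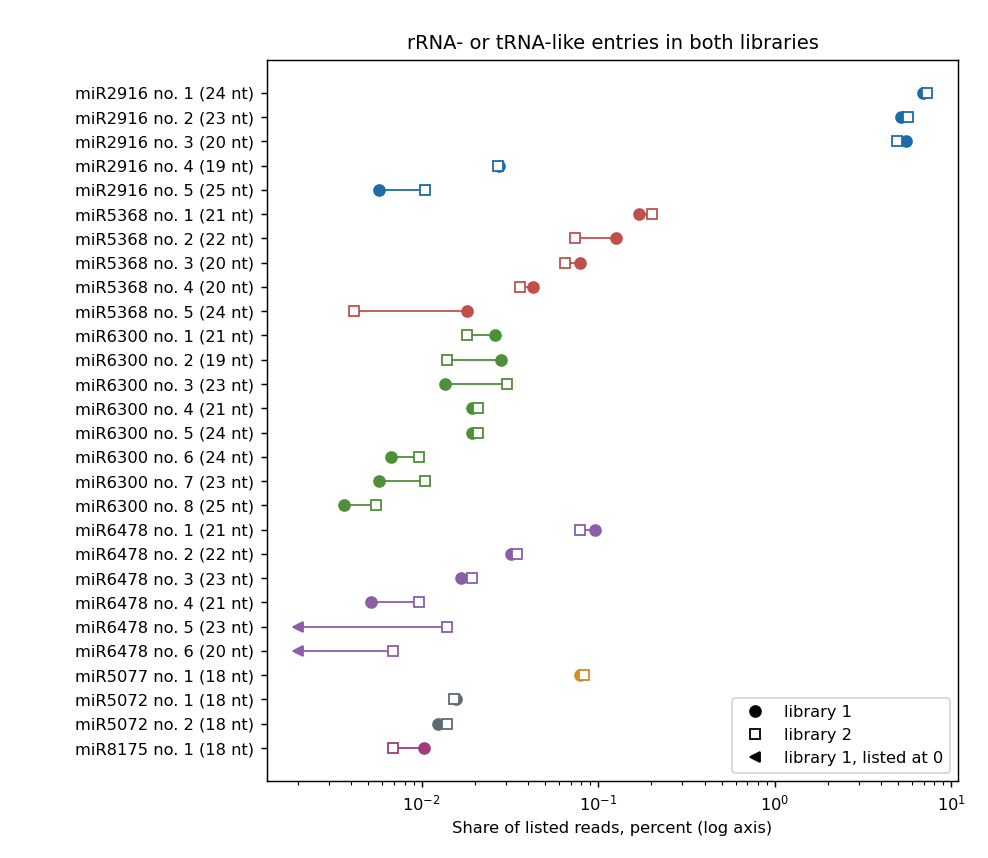
Share of listed reads (percent, log axis) of each of the 28 rRNA- or tRNA-like sequences with reads, with library 1 as filled circles and library 2 as open squares. The 3 leading miR2916 sequences lie between 4.91% and 7.27%, every other sequence lies at or below 0.202%, and 2 miR6478 sequences were listed at 0 in library 1 (triangles at the left edge).

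Within miR2916, 3 sequences carried almost all reads. Sequence no. 1 had 6640 reads in library 1 and 5246 in library 2, which is 6.89% and 7.27%. Sequence no. 2 had 5005 and 4090 reads (5.19% and 5.67%), and no. 3 had 5366 and 3546 (5.57% and 4.91%). No. 1 led in both libraries. The value of no. 3 is the sum of 2 lines of 2683 reads each in library 1 and 1773 each in library 2, and on 1 line it stands below no. 2 in both, so the order of no. 2 and no. 3 depends on the summing. Sequences no. 4 and no. 5 were far below these, with 26.5 and 19.5 reads for no. 4 and 5.5 and 7.5 for no. 5. The leading sequence held 39.8% ± 1.19 (SD, n = 2) of the family's reads. The leading sequence of miR319 held 41.1% ± 1.47 of that family's reads and that of miR396 41.0% ± 0.91, close to miR2916 (SD, n = 2 each). In miR156/miR157 it held 57.1% ± 0.29, and in miR535, miR165/miR166 and miR159 between 88.7% and 94.8%. These 6 are abundant conserved miRNA families of the table.

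By seed, miR2916 was the least concentrated of these 7 families. The 5 miR2916 sequences had 5 different seeds, and the leading seed held 39.8% of the family's reads. The 12 sequences of miR319 had 3 seeds with 79.6% of the reads on one of them, and the 7 of miR159 had 4 seeds with 98.5% on one. miR396 was nearest to miR2916, with 53.5% of the reads of its 10 sequences on the leading of 3 seeds, followed by miR156/miR157 with 75.6% on the leading of 6. Over all 28 rRNA- or tRNA-like sequences there were 21 seeds, and none of them occurred in any of the 139 other sequences with reads. The same count is not given here for the seeds of other families, so this is not shown to be particular to these entries. Only miR6478 and miR6300 had seeds shared between sequences of a family, 3 and 3 sequences on 2 seeds in miR6478 and 3 seeds with 2 sequences each in miR6300.

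The miR2916 sequences lay side by side on the registered poplar hairpin. Printed with the covered bases in capitals, that hairpin of 92 nt, as quoted in the table, is
peu-MIR2916: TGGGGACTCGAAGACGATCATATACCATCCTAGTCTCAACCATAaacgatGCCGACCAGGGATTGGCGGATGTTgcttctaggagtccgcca
Sequence no. 3 took bases 1 to 20, no. 4 bases 5 to 23, no. 5 bases 11 to 35, no. 2 bases 22 to 44 and no. 1 bases 51 to 74. Together they covered 68 bases, and no 2 of them began or ended at the same base. The registered mature form takes bases 1 to 23, so only no. 3 shares its start, and that sequence held 5.24% ± 0.46 (SD, n = 2) of the listed reads. No. 2, at 5.43% ± 0.33, touches the registered form only at bases 22 and 23, and no. 1, at 7.08% ± 0.27, lies wholly outside it (SD, n = 2 each).

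Where miR2916 sequences overlapped, they agreed base for base. Sequences no. 3, 4, 5 and 2 share 16, 13 and 14 bases in turn and join into 1 stretch of 44 nt, with 10.8% of library 1 and 10.6% of library 2:
miR2916 joined: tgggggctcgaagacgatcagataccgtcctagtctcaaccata
Counted from base 1 of the registered hairpin, this stretch differs from poplar by A6G, T21G and A27G. Sequence no. 1 differs by T64C and C67T. Sequence no. 5 crosses the boundary between no. 3 and no. 2, but with 5.5 and 7.5 reads it was the least abundant of the 5.

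**Figure D2:**
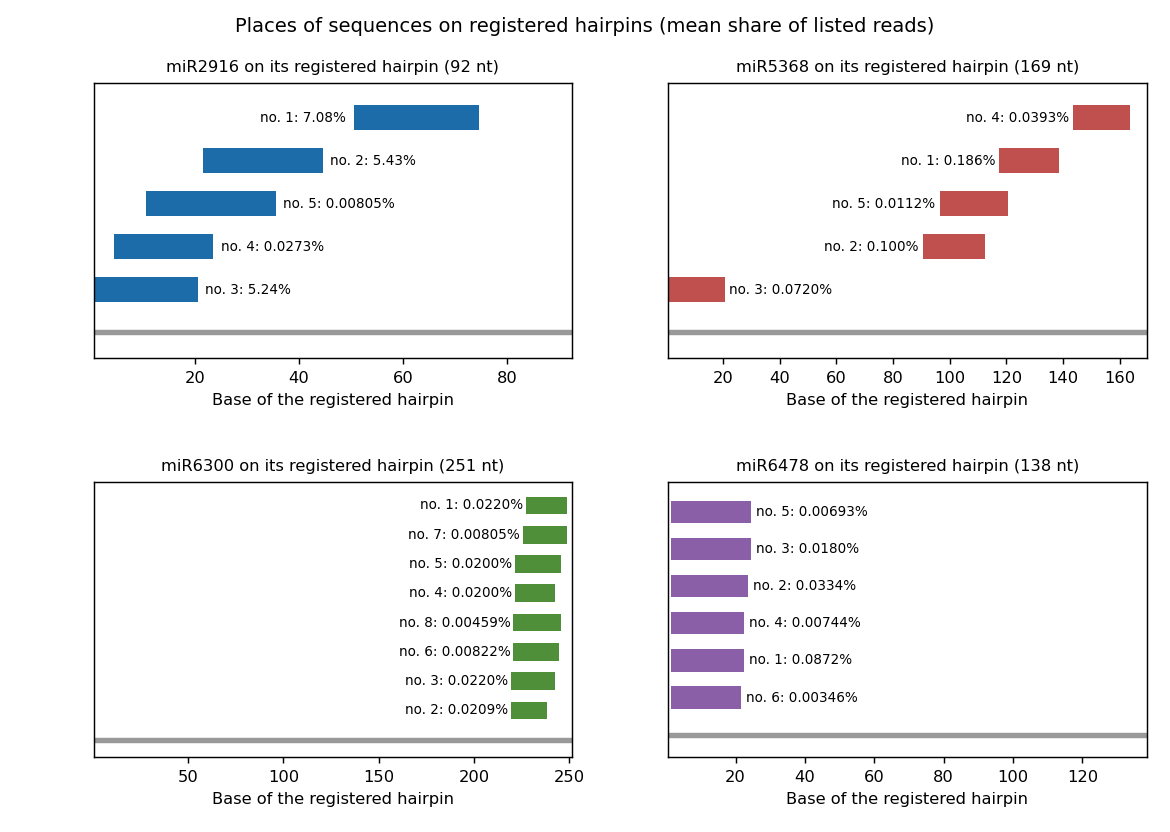
Places of the sequences of miR2916, miR5368, miR6300 and miR6478 on the registered hairpin of each family; the x axis is the base of the hairpin counted from its 5′ end, the grey line is the hairpin and the labels give the sequence number and its mean share of listed reads. The miR2916 bars follow one another from base 1 to base 74, the miR6300 bars have staggered starts, and the 6 miR6478 bars share 1 start at base 2.

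A further entry outside the named families lies on the same kind of stretch and was picked out after its values were seen. It is named for an unregistered arm of a miR168 precursor with 2 substitutions, and reads
miR168-named: cGGTGGATgttgctctta
It had 42 and 35 reads, or 0.046% ± 0.0035 (SD, n = 2). Its line is placed on a hairpin of 91 nt at bases 60 to 77, and miR2916 no. 4 is placed on the same hairpin at bases 1 to 19. The last 15 bases of miR2916 no. 1 also occur in that hairpin, at bases 56 to 70, and the miR168-named sequence begins with the last 11 of them.

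The table also places lines on a genome and gives a hairpin there. For the 2 leading miR2916 sequences that hairpin is
turmeric table, 89 nt: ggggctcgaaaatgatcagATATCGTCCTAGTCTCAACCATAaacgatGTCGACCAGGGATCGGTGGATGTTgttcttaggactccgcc
The capitals mark bases 20 to 42, where no. 2 is placed, and bases 49 to 72, where no. 1 is placed. Neither read matches the locus exactly. Counted from the first base of each sequence, with the locus first, no. 1 differs by T2C and no. 2 by T4C. Sequence no. 4 differs from its locus by T11C and no. 5 by A11G. Only no. 3 matched its loci exactly, on both of its lines.

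The sequences without an exact match at any listed locus thus carried most of the reads. Of the 26 rRNA- or tRNA-like sequences with a listed locus, 8 had no exact one, and these held 67.9% ± 2.87 (SD, n = 2) of the reads of the 26. Of the 132 other sequences with a locus, 34 had no exact one, a similar part by number, but they held 2.47% ± 0.64 (SD, n = 2) of those reads. The share among the rRNA- or tRNA-like entries rests on miR2916, since 2.63% ± 2.18 of the miR5368 reads and 11.1% ± 10.7 of the miR6478 reads were on such sequences (SD, n = 2 each). All miR6300 and miR5072 sequences matched a listed locus exactly. A sequence is given on at most 2 lines, so the listed loci need not be all of its loci.

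miR5368 was spread along its registered soybean hairpin. Its 5 sequences covered 88 of 169 bases with 5 starts and 5 ends, from base 1 to base 163. Sequence no. 1, at bases 118 to 138, had 163 reads in library 1 and 146 in library 2, and no. 2, at bases 91 to 112, had 122 and 53. Sequence no. 3 lay at the other end, at bases 1 to 20, with 76 and 47 reads. No. 1 led in both libraries, and no. 2 was the one whose share differed most among the first 4. Sequence no. 4, at bases 144 to 163, had 41 and 26 reads, and no. 5, which shares 16 bases with no. 2, had 17.5 and 3. All 5 carry a name of an unregistered arm with 1 substitution.

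The arm given to a sequence was not fixed by its letters. Of the 4 miR5368 sequences on 2 lines, 3 were listed on the 5′ arm at one locus and on the 3′ arm at the other. The same held for 4 of 5 in miR6478 and for 1 of 1 in miR5072. In all, 8 of 13 rRNA- or tRNA-like sequences on 2 lines had both arms, against 12 of 60 other sequences. In miR6300, 0 of 2 did, and both sequences stood on the 3′ arm at either locus.

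The miR6300 sequences formed a ladder in a single window. The 8 sequences with reads covered bases 220 to 248 of the 251 nt soybean hairpin, 29 bases in all, with 5 different starts and 5 different ends. Joined by overlaps of at least 12 bases, 7 of them gave the stretch
miR6300 joined: gtcgttgtagtatagtggtgagtattccc
Sequence no. 2 starts at the first base of this stretch; it took 27 reads from library 1 and 10 from library 2. No. 3, which has the same start and runs 4 bases further, had 13 and 22. No. 1, which differs from the joined stretch by reading taa in place of tga, is identical to the registered hairpin there, with 25 reads and then 13. By share, no. 1 and no. 2 were higher in library 1 and no. 3 in library 2, and none of these differences passed the test given at the end. Nos. 4 and 5 start at the same base and were both listed with 18.5 and 15 reads, so they may share reads. No. 6 had 6.5 and 7 reads, no. 7 had 5.5 and 7.5 and no. 8 had 3.5 and 4. Sequence no. 9 was at 0 in both libraries.

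In miR6478 all 6 sequences began at the same base of the registered poplar hairpin, base 2, and only the 3′ end and base 6 varied. With C at base 6, as registered, no. 1 of 21 nt had 92 reads in library 1 and 57 in library 2. No. 2 of 22 nt had 31 and 25, and no. 3 of 23 nt had 16 and 14. In both libraries each longer form had fewer reads than the one before it. With T at base 6, no. 4 had 5 and 7 reads, no. 5 had 0 and 10, and no. 6 had 0 and 5. The forms with T therefore held 5 of 144 miR6478 reads in library 1 and 22 of 118 in library 2. All 5 lines of the forms with T differ from their loci by C6T, while the forms with C matched theirs exactly.

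Letters known from tRNA were looked for in the loci. In 5 of the 11 miR6478 lines, the complement of the first 6 bases of the placed stretch occurs downstream, and it ends 84 nt from the start of the sequence. It occurs in 0 of 10 lines of miR6300, 0 of 6 of miR2916, 0 of 9 of miR5368 and 0 of 3 of miR5072. Only a full complement downstream was counted. Pairing with bases upstream, which a tRNA piece ending in CCA would have, and imperfect pairing were not looked for. Some of the hairpins also end at or near the placed sequence. A 0 therefore does not show that such pairing is absent. For example, miR6300 no. 5 and no. 8 are placed at the very end of hairpins of 46 and 37 nt, with nothing downstream. Among the other lines the complement occurs in 25 of 192, at 29 to 126 nt, so it is not particular to miR6478 by itself. One such locus is shown with the placed sequence and that complement in capitals:
miR6478 locus, 88 nt: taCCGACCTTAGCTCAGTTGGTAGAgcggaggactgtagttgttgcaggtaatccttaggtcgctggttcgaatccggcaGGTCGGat
The T-loop letters GTTCGA stand at bases 67 to 72 of this locus. On either strand, GTTCGA occurred in 5 of 10 distinct miR6478 hairpins and in 3 of 10 of miR6300. It occurred in 0 of 4 hairpins of miR2916, 0 of 8 of miR5368 and 0 of 3 of miR5072, and in 8 of 160 hairpins of the other lines. Among hairpins of at least 80 nt it was in 8 of 21 of the rRNA- or tRNA-like entries and in 6 of 119 of the others. Distinct hairpins are those whose letters are not identical, and they need not be separate loci. Those of miR6478 no. 4, no. 5 and no. 6 that hold GTTCGA all had a deposited length of 84 nt. Their free energy was -31.2 or -30.2 kcal/mol, so they may be near-copies, which was not tested. The letters were chosen with these sequences in view, and a match is a description of the letters only.

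The miR8175 sequence, named for an Arabidopsis entry, met miR6300 on the same loci. Its first 15 bases occur in 2 of the 10 miR6300 hairpins, ending 66 and 69 nt from the start of the miR6300 sequence placed there. The first of them is shown with both stretches in capitals:
miR6300 locus, 88 nt: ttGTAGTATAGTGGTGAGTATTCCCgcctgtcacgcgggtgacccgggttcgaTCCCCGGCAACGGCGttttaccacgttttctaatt
GTTCGA stands at bases 48 to 53, directly before the miR8175 stretch. The 3 bases after the shared stretch are TTT in both hairpins, whereas the miR8175 sequence ends in CCA. In the other direction, 17 of the 21 bases of miR6300 no. 1 occur in the registered Arabidopsis hairpin of miR8175. No locus of its own was used here for miR8175, which had 10 reads in library 1 and 5 in library 2.

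The letters CCA ended 4 of the 28 sequences, those of miR5077, miR5072 and miR8175. All 4 were 18 nt long, and they were the only 18 nt sequences among the 28. miR5077 no. 1 had 76 reads in library 1 and 60 in library 2, miR5072 no. 1 had 15 and 11, and miR5072 no. 2 had 12 and 10. The 4 sequences together held 0.118% ± 0.0013 (SD, n = 2) of the listed reads. Among the other 139 sequences 3 ended in CCA, and 1 of these was 18 nt long. The miR5072 sequences matched their loci exactly including CCA, and no locus was used here for miR5077. The remaining miR5072 sequence was at 0 in both libraries.

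The lengths of the rRNA- or tRNA-like entries followed miR2916, which held most of their reads. Sequences of 23 and 24 nt held 67.8% ± 2.91 of their reads, against 0.31% ± 0.035 of the reads of the other sequences (SD, n = 2 each). Without miR2916 the value was 11.7% ± 2.84, and 21 nt became the leading length at 39.9% ± 2.37 (SD, n = 2 each). In the other sequences 21 nt held 71.6% ± 0.96 (SD, n = 2). By number, 9 of the 28 sequences were 23 or 24 nt long, against 6 of 139.

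**Figure D3:**
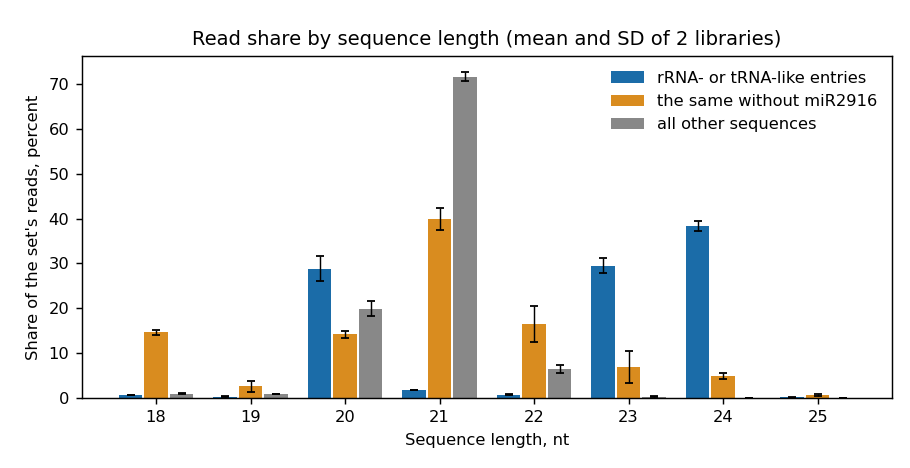
Share of reads by sequence length (bars, mean; error bars, SD of 2 libraries) for the 28 rRNA- or tRNA-like sequences, the same without miR2916, and the 139 other sequences; each set sums to its own reads. The first set peaks at 24, 23 and 20 nt, the lengths of the 3 leading miR2916 sequences, and the other sequences peak at 21 nt.

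The form usual for a plant miRNA, 20 to 22 nt with a first U, was held by few of them. It described 2 of the 28 sequences, miR2916 no. 3 and miR5368 no. 1, and 73 of the 139 others. These 2 held 29.2% ± 2.55 of the reads of the 28, against 86.9% ± 0.76 in the other sequences (SD, n = 2 each). With 1 line per sequence in place of the sum, the value for the 28 was 17.3%, and without miR2916 no. 1 it was 47.1%. The first base was G for 39.0% ± 1.01, U for 29.9% ± 2.53, A for 29.7% ± 1.54 and C for 1.33% ± 0.021 of the reads (SD, n = 2 each). In the other sequences U came to 87.6% ± 0.80 (SD, n = 2). By number of sequences, C was the most frequent first base of the 28, with 10, 6 of them miR6478.

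Overlap between listed sequences was common among these entries and among the others. At 12 or more shared bases, 19 of the 28 overlapped another of them, with 59.6% ± 1.20 of their reads, and 65 of the 139 others overlapped one another, with 70.4% ± 0.88 (SD, n = 2 each). The read shares of the 28 depend on single sequences. At 16 or more shared bases 17 of them overlapped, with 30.3% ± 2.83 of the reads, while 61 of the 139 others did, with 70.1% ± 0.90 (SD, n = 2 each). Without miR2916 no. 1, which overlaps none, the share at 12 bases was 96.2%. By family, 4 of 5 sequences overlapped in miR2916, 2 of 5 in miR5368, 7 of 8 in miR6300 and 6 of 6 in miR6478. None of the 28 overlapped a sequence of another family or an entry outside the named families by that much.

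The minimum free energy index (MFEI, as deposited), which scales the folding energy by length and GC content, ran from 0.2 to 0.7 over the 39 placed lines with reads, with a median of 0.6. The 192 other lines had a median of 0.9, and 120 of them exceeded 0.7, the highest value among the 39. The 192 include lines without a registered name. For the 169 with one, the median was 0.8 and 97 exceeded 0.7. Of the single miRNA families, miR319 and miR159 were looked at, and both had a median of 0.5, with 3 of 14 and 3 of 12 lines above 0.7. The header of the table gives a free energy of at most -15 kcal/mol and a length of at least 50 nt as criteria. Both were met by 23 of the 39 lines (59.0%) and by 147 of the 192 others (76.6%). They were met by 124 of the 169 others with a registered name (73.4%), by 7 of 14 lines of miR319 and by 4 of 12 of miR159.

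**Figure D4:**
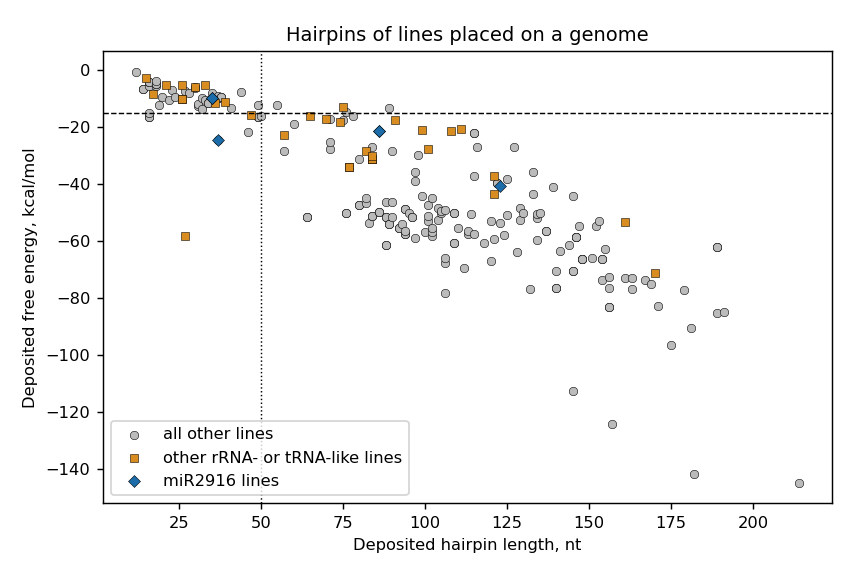
Deposited free energy (kcal/mol) against deposited hairpin length (nt) for the 39 rRNA- or tRNA-like lines (miR2916 as diamonds, the rest as squares) and the 192 other lines placed on a genome (circles). The dashed and dotted lines mark the header's criteria of -15 kcal/mol and 50 nt; 1 miR5368 line with a length of 27 nt and -58.4 kcal/mol has a hairpin sequence of 168 nt, so the 2 deposited lengths differ.

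In the placed structures, 22 of the 39 lines had at least 12 paired bases in the mature region, the number the header asks for, against 151 of the 192 others. Of the 169 others with a registered name, 128 met it. In miR319 it was met by 9 of 14 lines and in miR159 by 5 of 12, so missing it is not particular to these entries. miR2916 met it on 5 of 6 lines and miR6300 on 8 of 10. miR5368 did so on 4 of 9, miR6478 on 5 of 11 and miR5072 on 0 of 3.

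The libraries were last compared by their reads for each sequence, which says nothing of other preparations. The p-values take reads as independent and cover counting error only, whereas the libraries differed by more than that over the whole table, so the p-values are too small as a measure of spread between preparations. A two-sided exact binomial test with Benjamini-Hochberg adjustment over all 167 sequences called 5 of the 28, against 13.8% of all sequences tested. Of these, 2 were higher in library 1 (5.99% of all sequences were) and 3 in library 2 (7.78%). miR2916 no. 3 was 1.13-fold higher in library 1 (exact binomial test, adjusted p = 2.17e-07). miR2916 no. 1 and no. 2 were 1.05-fold and 1.09-fold higher in library 2 (exact, adjusted p = 0.0347 and 0.000697). These 3 differences were small and opposed, and the family's share differed by 1.01-fold.

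miR5368 no. 2 was 1.72-fold higher in library 1 (exact binomial test, adjusted p = 0.00827). miR6478 no. 5, a form with T at base 6, was listed at 0 in library 1 against 10 reads in library 2 (exact, adjusted p = 0.00289). miR5368 no. 5 had the widest ratio, 4.37-fold on 17.5 and 3 reads, and missed the threshold (exact, adjusted p = 0.0503). Without adjustment 8 of the 28 had a p below 0.05, against 40 of all 167 sequences (exact binomial test). With the reads of a single line per sequence, 2 calls were left, miR2916 no. 2 and no. 3. No share over all sequences is given here for that setting.

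Of the 28 sequences, 26 had reads in both libraries, and 23 of these 26 differed by less than 2-fold, as did 120 of 127 other sequences. The median difference of the 26 was 1.20-fold, against 1.16-fold over the 127. Across the 28 sequences, which share libraries and partly reads, the 2 libraries had a Spearman's rho of 0.887 and, after log2(reads + 1), a Pearson's r of 0.941. Over the 139 other sequences Pearson's r was 0.914.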

How the data were processed

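Small RNA of turmeric nanoparticles was sequenced in 2 samples of 1 group. Per the labels' protocols, RNA was isolated with a miRNeasy kit and libraries were made with TruSeq small RNA chemistry. CASAVA 1.8.4 and cutadapt 1.10 appear, with no role, in the submitters' processing notes. The authors mapped reads to miRBase entries and placed hairpins on a genome, per the file headers. The miRBase release, the aligner and the name of the assembly were not given in the sources used here, and no genome positions are printed.

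The deposited table gives an expected count of reads per line. The normalized signal is, by the authors' values, the raw column times 0.508 in library 1 and 0.923 in library 2, which leaves shares as they are. The free energy score (kcal/mol), hairpin length and MFEI are as deposited by the authors. Of the lines, 12 hold no entry here, and 2 value columns that match no sample were not used.

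Values were summed over lines with the same sequence. Of 13 sequences on 2 lines, 10 had a fractional single line and 0 a fractional sum (tolerance 1e-06). Lines of 81.5 reads each, as for miR5368 no. 1 in library 1, sum to a whole value by arithmetic. The 0 therefore does not show that reads were divided over lines. Of 15 sequences on 1 line, 8 were fractional too, so reads may be shared between near-identical sequences. Values were rounded for tests. An entry is loosely matched if each of its names either denotes an arm with no registered form or carries 2 substitutions. Sequences were placed ungapped at the fewest mismatches, and overlaps are exact. The families, lists and comparisons were chosen with earlier results of these data known. All sequences with reads are named with their values. Python 3.11.15, NumPy 2.4.6 and SciPy 1.17.1 were used.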

Additional observations from a re-analysis of the deposited data

How the results depend on the processing

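With the reads of a single line per sequence, the rRNA- or tRNA-like entries held 23.2% and miR2916 22.4% of the listed reads, in place of 18.6% and 17.8%. Within the entries, 20 to 22 nt with a first U then held 17.3%, 23 and 24 nt 80.3% and overlapping sequences 53.1%, and 2 sequences were called different between the libraries in place of 5. Among registered names only, the shares were 19.7% and 18.8%, without loosely matched entries 7.98% and 7.53%, and without miR2916 no. 1 12.4% and 11.5%. Without that sequence, 20 to 22 nt with a first U held 47.1%, 23 and 24 nt 48.0% and overlapping sequences 96.2%. At 16 shared bases, chosen after seeing the data for the reads, overlapping sequences held 30.3% of the reads in place of 59.6%, while their number was 17 in place of 19. Without miR2916, 20 to 22 nt with a first U held 23.02%, 23 and 24 nt 11.7% and overlapping sequences 45.9%. Settings that drop entries change the denominators by their construction. Taking a single line lowers, also by construction, only the sequences on 2 lines. miR2916 no. 1 and no. 2 stand on 1 line each and keep all their reads. For the remaining settings the cause was not tested. Shares stayed within the spread with a minimum of 10 reads summed, the normalized column and the first name only. Calls and shares moved little with Fisher's exact test (5 calls), at least 10 reads in both libraries (4 calls), and, chosen after seeing the data, the miR168-named sequence added (18.6% and 17.8%). For the calls under these settings and with a single line per sequence, no share over all sequences is given here. Pearson's r was 0.922 and 0.984 with pseudocounts 0.5 and 10, and 0.989 with at least 10 reads in both libraries. Single libraries gave 18.5% to 18.7% for the entries, 17.7% to 17.9% for miR2916, 27.39% to 30.997% for 20 to 22 nt with a first U, 65.7% to 69.8% for 23 and 24 nt and 58.7% to 60.4% for overlapping sequences; a range over 2 libraries is no more than their spread. No paired analysis was possible because both libraries belong to 1 group. Sequences under about 10 reads are too shallow for their order to be read.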
